A study of Homo sapiens with 6 samples.

Results

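The NRF2 antioxidant genes were followed by name through the expression profile of MDA-MB-231 cells treated with the histone deacetylase (HDAC) inhibitor PCI-24781. They are NFE2L2, KEAP1, SLC7A11, GCLC, GCLM, TXNRD1, SRXN1, NQO1, HMOX1 and OSGIN1, and all 10 were found by NCBI Gene ID among the 16623 genes of the files. The MDA-MB-231 line comes from a breast cancer without hormone receptors, and DMSO served as the solvent control. Adherent cultures received either DMSO or PCI-24781 at a dose of 100 or 200 nM, and RNA was taken at 24 h or at 48 h. There was 1 library for each of these 6 conditions, so no spread between replicates is known and no p-value is given. No other agent or genetic change is named in the labels for any group.

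NRF2, the protein encoded by NFE2L2, is the transcription factor that drives much of the cell's defence against oxidants and electrophiles. In unstressed cells KEAP1 holds NRF2 and presents it to the CUL3 ubiquitin ligase, so that NRF2 protein is made and destroyed continuously. When reactive cysteines of KEAP1 are modified, NRF2 escapes destruction, pairs with a small MAF protein and binds antioxidant response elements in genes for glutathione synthesis, thioredoxin recycling, quinone reduction, heme breakdown and NADPH supply. BACH1 competes for many of the same elements and is best known as the repressor of HMOX1. NRF2 activity is therefore set largely at the protein level, which was not measured in these libraries.

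The short promoter windows of these genes were read for the core of the antioxidant response element, because NRF2 and the small MAF proteins bind it. Sequences were those of RefSeq on GRCh38.p14, with windows of 250 bases before and 50 bases from each start site. The table held 11 windows for 8 of the 10 genes, and HMOX1 and SLC7A11 were not among them. The core was searched as TGACNNNGC on both strands, and it was present in 4 of the 11 windows, from 3 genes (TXNRD1, GCLM and KEAP1). Over all 35116 windows of the table, 13.3% held the core. A looser form, TGANNNNGC, which includes the first, was present in 7 of the 11 windows and in 41.8% of all windows. The 4 windows with the core are shown in part, each as 150 bases before and 10 bases from the start site in the direction of transcription, with the core in capitals. Where the core lies on the opposite strand, its reverse complement is the stretch in capitals.
TXNRD1, chr12:104215629-104215788, plus strand: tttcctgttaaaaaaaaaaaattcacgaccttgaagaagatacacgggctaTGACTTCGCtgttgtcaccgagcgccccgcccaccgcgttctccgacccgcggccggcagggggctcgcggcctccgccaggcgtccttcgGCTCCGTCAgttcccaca
TXNRD1, chr12:104286882-104287041, plus strand: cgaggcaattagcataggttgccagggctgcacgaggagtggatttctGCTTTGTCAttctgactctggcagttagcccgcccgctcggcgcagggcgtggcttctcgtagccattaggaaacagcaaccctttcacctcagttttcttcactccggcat
GCLM, chr1:93909421-93909580, minus strand: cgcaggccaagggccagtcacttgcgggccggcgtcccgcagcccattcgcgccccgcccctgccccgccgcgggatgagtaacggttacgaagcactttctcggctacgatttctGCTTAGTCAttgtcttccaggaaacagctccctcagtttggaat
KEAP1, chr19:10502762-10502921, minus strand: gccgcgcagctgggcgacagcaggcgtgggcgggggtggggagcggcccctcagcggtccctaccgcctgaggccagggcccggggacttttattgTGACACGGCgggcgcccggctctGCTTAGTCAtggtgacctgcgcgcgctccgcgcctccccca

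In the first TXNRD1 window the core stood as TGACTTCGC on the strand of the gene, from -99 to -91, and as TGACGGAGC on the other strand, from -8 to 0, counting the start site as 0. The second TXNRD1 window, a start site further downstream, held TGACAAAGC on the opposite strand from -102 to -94. GCLM and KEAP1 shared the same 9 letters, TGACTAAGC, on the opposite strand, from -34 to -26 in GCLM and from -31 to -23 in KEAP1. KEAP1 also had TGACACGGC on its own strand from -54 to -46. These matches describe letters in a short window and not bound sites. The windows of SRXN1, NQO1, GCLC, NFE2L2 and OSGIN1 did not hold TGACNNNGC, which says only that these letters are not within these 300 bases.

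Expression was deposited as FPKM, a fragment count per kilobase of transcript and per unit of library depth. From the spacing of the lowest values of short genes, the depth of the libraries was estimated at 15800000 to 17900000 fragments, with the 200 nM 48 h library the shallowest. Between 65.9% and 75.0% of the low values used lay within 0.15 of a whole fragment, so this depth is approximate. Differences are given as log2(FPKM + 1) of a PCI-24781 library minus that of the DMSO library of the same time, and a gene was called at 2-fold or more if its FPKM reached 1 in the treated or the DMSO library. VIM and CD44, which MDA-MB-231 cells express, lay between 1629.38 and 2053.39 FPKM and between 154.04 and 218.74 FPKM, and KRT18 lay between 89.03 and 110.61. The hormone receptor genes ESR1 and PGR did not exceed 0.04, whereas ERBB2 lay between 13.16 and 21.36. Of the markers of other cell types, ALB was not matched, DCN stayed at or below 0.07, PTPRC between 0.76 and 1.01, PECAM1 between 0.38 and 2.33 and CD14 between 0.28 and 1.47. PECAM1 and CD14 were lowest in DMSO 24 h and highest at 200 nM 48 h, and their part in the results was not tested.

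The DMSO libraries were not alike, and the 100 nM 48 h library differed from the other PCI-24781 libraries. Between DMSO 48 h and DMSO 24 h, 2.49% of 11490 genes were called higher and 0.131% lower. Of the 521 genes called higher at 200 nM 24 h, 496 lay above DMSO at 200 nM 48 h, where 51.0% of all genes did. At 100 nM 48 h, 77 of the 521 lay above and 439 below DMSO, where 47.2% of all genes lay above and 52.4% below. These 48 h comparisons share the DMSO 48 h library with each other, but no library with the comparison that chose the genes. Results are therefore given against each DMSO library where the choice matters. Culture time, a property of the DMSO 48 h or the 100 nM 48 h library and an exchange of the labels of these libraries cannot be told apart here. Under such an exchange every difference of 100 nM 48 h from DMSO 48 h would have the opposite sign. The step from 100 nM to 200 nM at 48 h would be the difference of 200 nM from DMSO. Differences of 24 h libraries from DMSO 48 h, or from the mean of the DMSO libraries, would change as well. The DMSO 48 h level of KEAP1 would be 24.02 FPKM in place of 18.93, and that of NQO1 212.25 in place of 133.22.

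Ordered by level, TXNRD1 and NQO1 ranked first and second of the 10 genes in every library, with mean FPKM values of 260.21 and 171.00 over the 6 libraries. NFE2L2 (mean 60.07) and SRXN1 (48.77) followed, and exchanged places at 200 nM 24 h. KEAP1 (19.56) and GCLM (17.03) came next by mean, but the order below the fourth place varied. KEAP1 was 5th in both DMSO and both 100 nM libraries, 7th at 200 nM 24 h and 6th at 200 nM 48 h. HMOX1 ranged from 10th in DMSO 24 h to 7th in DMSO 48 h, and SLC7A11 from 6th at 200 nM 24 h to 9th in the 48 h libraries. The lowest means were those of SLC7A11 (11.66), GCLC (10.70), HMOX1 (8.38) and OSGIN1 (4.80). Since FPKM is per length, these levels can be set beside each other. With 1 library per condition, no spread separates neighbours in this order. The fewest fragments inferred for any of the genes were about 131, for OSGIN1 in DMSO 48 h.

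**Figure D1:**
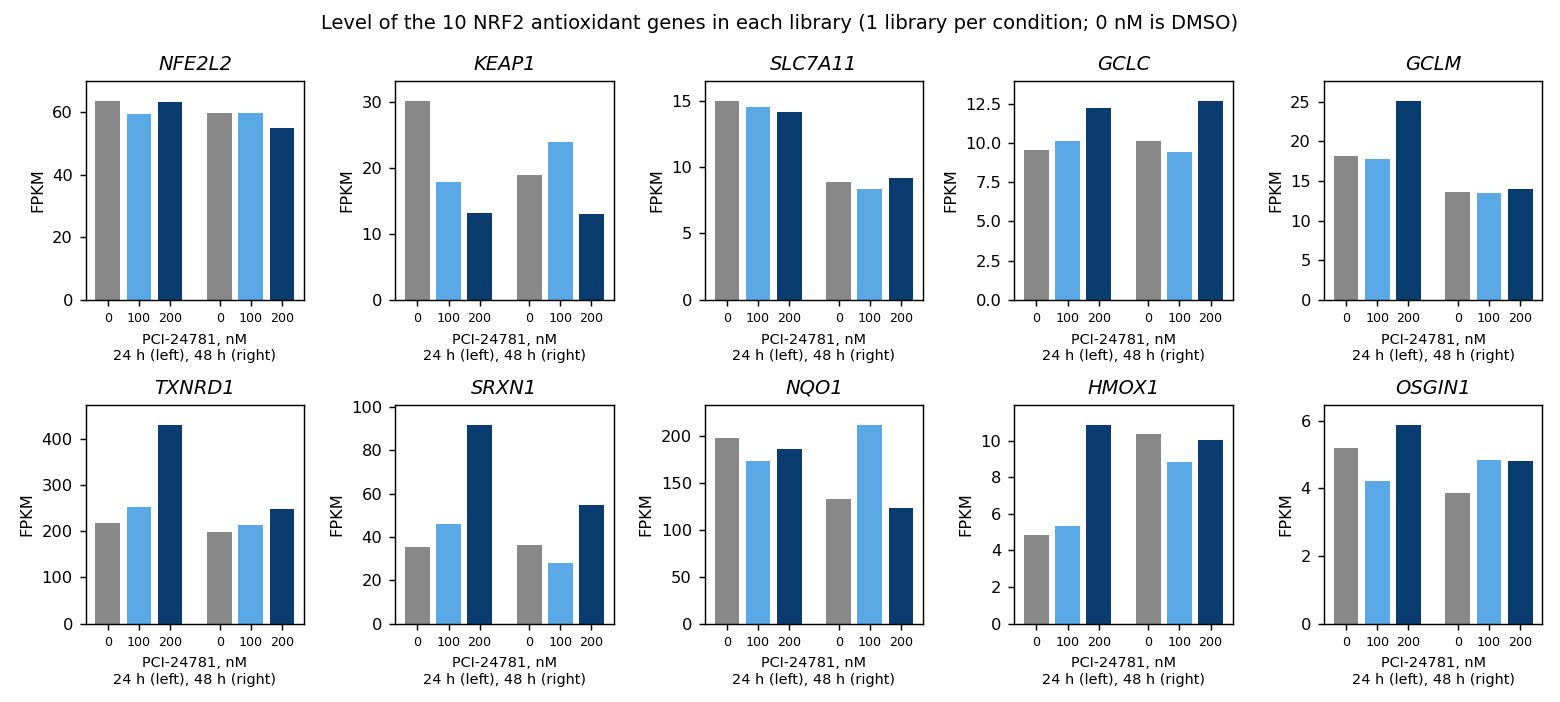
Bars give the FPKM of each of the 10 NRF2 antioxidant genes in the 6 libraries, from DMSO (0 nM) to 200 nM PCI-24781, with 24 h on the left and 48 h on the right of each panel; axes start at 0 and differ between panels. TXNRD1 (431.15) and SRXN1 (91.92) had their tallest bars at 200 nM 24 h, while KEAP1 was lowest in both 200 nM libraries (13.20 and 13.11).

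The question of each comparison was how the transcripts responded to 100 nM or 200 nM PCI-24781 at a given time. At 200 nM 24 h, SRXN1 and HMOX1 were called higher and KEAP1 was called lower, so that 2 of the 10 genes were called higher and 1 lower, against 4.47% and 1.48% of 11660 genes tested. TXNRD1 was just under the threshold. With a 1.5-fold threshold TXNRD1 joined them, giving 3 higher and 1 lower against backgrounds of 12.5% and 7.58%. The median difference of the 10 genes was 0.24, beside 0.01 over all genes tested.

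At 100 nM 24 h none of the 10 genes was called at 2-fold, where 1.35% of 11475 genes were called higher and 0.131% lower. KEAP1 alone was past 1.5-fold, on the lower side, with backgrounds of 5.54% higher and 1.25% lower. The 10 genes had a median of -0.03, against 0.01 for all genes.

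At 48 h none of the 10 genes was called at 2-fold at either dose. The backgrounds were 0.0608% higher and 0.408% lower of 11514 genes at 100 nM, and 0.206% higher and 0.06% lower of 11665 genes at 200 nM. NQO1 was past 1.5-fold on the higher side at 100 nM, where 0.504% of all genes were past it on that side and 1.75% on the other. At 200 nM 48 h no member of the group passed 1.5-fold, beside 1.53% of all genes higher and 0.463% lower. The medians of the 10 genes were -0.01 at 100 nM 48 h and 0.04 at 200 nM 48 h.

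**Figure D2:**
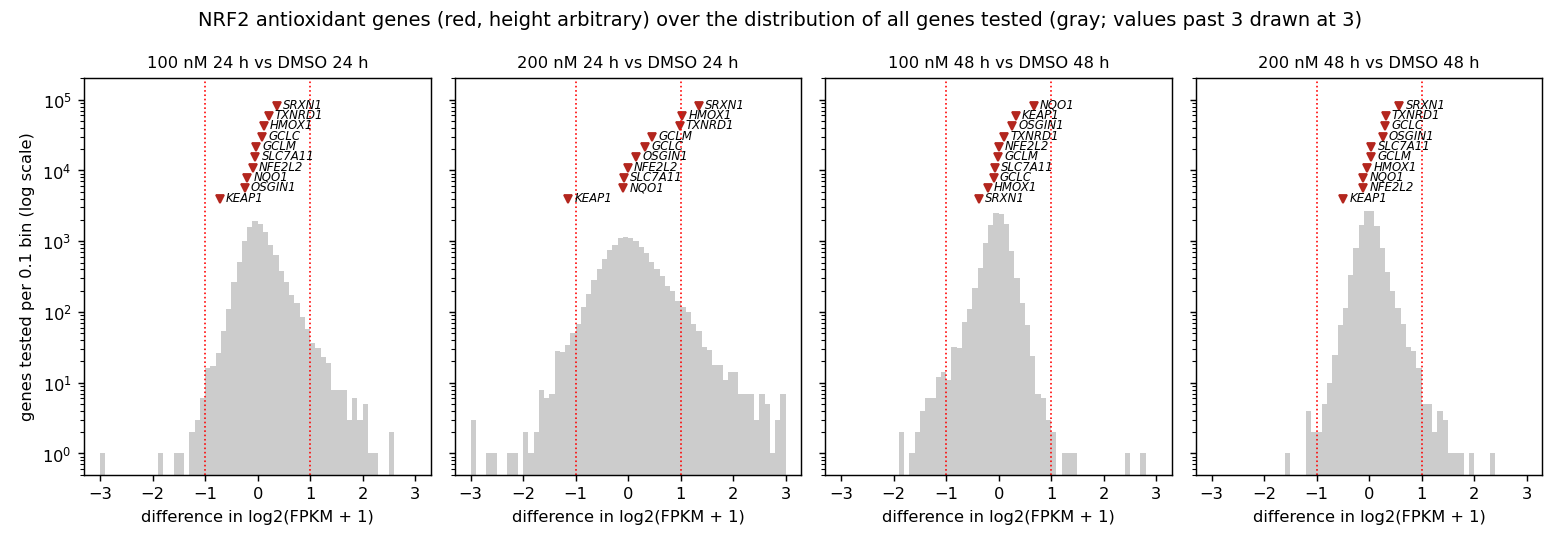
Gray histograms give the difference in log2(FPKM + 1) of all genes tested in each of the 4 comparisons (vertical axis on a log scale), and red triangles mark the 10 NRF2 antioxidant genes at their own values, with arbitrary heights. At 200 nM 24 h SRXN1 (1.35), HMOX1 (1.03) and KEAP1 (-1.14) lay outside the dotted 2-fold lines, and TXNRD1 (0.98) lay just inside.

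The regulators themselves behaved differently from each other. NFE2L2 (NCBI Gene ID 4780, chromosome 2 from 178095031 to 178129859 on hg19, minus strand) had 63.52 FPKM in DMSO, 59.42 at 100 nM and 63.32 at 200 nM at 24 h, and 59.66, 59.61 and 54.91 at 48 h. Its 4 differences lay between -0.12 and -0.00, and its range over the 6 libraries, 0.21, was the narrowest of the 10 genes. Transcripts of NFE2L2 thus varied little across dose and time, with the lowest value at 200 nM 48 h.

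KEAP1 (NCBI Gene ID 9817, chromosome 19 from 10596796 to 10614054, minus strand), the adaptor that presents NRF2 for ubiquitination, had 30.23 FPKM in DMSO, 17.90 at 100 nM and 13.20 at 200 nM at 24 h. At 48 h the values were 18.93 in DMSO, 24.02 at 100 nM and 13.11 at 200 nM. Its level was therefore lower at each higher dose at 24 h, and lowest at 200 nM at both times. Relative to DMSO of its time, KEAP1 differed by -0.72 with the lower dose and -1.14 with the higher dose after 24 h, and by 0.33 and -0.50 after 48 h. As a ratio of FPKM, 200 nM 24 h was 0.44 of DMSO 24 h, with an approximate 95% counting interval from 0.40 to 0.48, and 200 nM 48 h was 0.69 of DMSO 48 h, from 0.62 to 0.77. These intervals use the inferred depth and the shortest listed transcript, and cover counting error only. The size of the 24 h difference rested on the DMSO 24 h library: against DMSO 48 h it was -0.49 at 200 nM and -0.08 at 100 nM, and KEAP1 was then no longer called. At 48 h the step from 100 nM to 200 nM was -0.83.

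Cystine uptake and glutathione synthesis came next. SLC7A11, the cystine importer of system xc-, is followed by glutamate-cysteine ligase, whose catalytic subunit is GCLC and whose modifier subunit is GCLM. SLC7A11 (NCBI Gene ID 23657, chromosome 4 from 139085248 to 139163503, minus strand) had 14.97, 14.52 and 14.13 FPKM at 24 h in the order DMSO, 100 nM and 200 nM, and 8.85, 8.37 and 9.15 at 48 h. The 24 h libraries were all above the 48 h libraries, and within each time the doses lay close to DMSO, with differences between -0.08 and 0.04. Between the DMSO libraries the difference was -0.70. Against the DMSO library of the other time, SLC7A11 differed by 0.66 at 100 nM and 0.62 at 200 nM at 24 h. At 48 h it then differed by -0.77 and -0.65.

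GCLM (NCBI Gene ID 2730, chromosome 1 from 94350755 to 94375154, minus strand) had 18.09, 17.81 and 25.10 FPKM at 24 h and 13.65, 13.54 and 14.01 at 48 h in the same order. Only the 200 nM 24 h library stood above the rest, at 1.39 times DMSO with a counting interval from 1.28 to 1.51. The difference there was 0.45, and it was 0.83 against DMSO 48 h. The other 3 differences of GCLM lay between -0.02 and 0.04. GCLC (NCBI Gene ID 2729, chromosome 6 from 53362139 to 53409927, minus strand) had 9.57, 10.16 and 12.25 FPKM at 24 h and 10.12, 9.41 and 12.69 at 48 h. Its highest values were in the 200 nM libraries of both times, with differences of 0.33 and 0.30. Neither ligase subunit reached 1.5-fold against DMSO of the same time.

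The thioredoxin arm held the gene with the largest difference of the 10, SRXN1, and the gene with the highest level, TXNRD1. TXNRD1, the cytosolic selenoprotein that reduces thioredoxin with NADPH, lies on chromosome 12 from 104609557 to 104744085 (NCBI Gene ID 7296, plus strand). TXNRD1 stood at 218.25 FPKM with DMSO, 252.33 with 100 nM and 431.15 with 200 nM at 24 h, and at 198.75, 213.53 and 247.25 at 48 h. Its levels followed the order of dose at both times, and the 200 nM 24 h library stood far above the other five. The differences from DMSO were 0.21 and 0.98 for the lower and the higher dose at 24 h, then 0.10 and 0.31 at 48 h. At 200 nM 24 h the ratio to DMSO was 1.98, with a counting interval from 1.92 to 2.03. Against DMSO 48 h the same library differed by 1.11, past 2-fold. EID3 lies within the TXNRD1 interval on the same strand, and its FPKM was 1.36 at 200 nM 24 h and between 0.15 and 0.34 elsewhere.

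SRXN1 encodes sulfiredoxin, which restores peroxiredoxins that peroxide has over-oxidised. It lies on chromosome 20 from 627259 to 634014 (NCBI Gene ID 140809, minus strand). Sulfiredoxin transcripts measured 35.57 FPKM in DMSO, 46.12 at 100 nM and 91.92 at 200 nM at 24 h, and 36.41, 27.75 and 54.85 at 48 h. At each time the 200 nM library was the highest, and the DMSO libraries of the 2 times nearly coincided, with a difference of 0.03. The ratio at 200 nM 24 h was 2.58 (counting interval from 2.44 to 2.73) and at 200 nM 48 h 1.51 (from 1.41 to 1.60). On the log2(FPKM + 1) scale the differences were 0.37, 1.35, -0.38 and 0.58 in the order used above. Of 11660 genes tested, 210 had a larger value than SRXN1 at 200 nM 24 h. At 200 nM 48 h, where changes were smaller, 182 of 11665 genes did. The call at 200 nM 24 h held against DMSO 48 h (1.31) and against the mean of the DMSO libraries (1.33). The step from 100 nM to 200 nM was 0.98 at 24 h and 0.96 at 48 h, the widest such step of the 10 genes at either time.

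NQO1, which reduces quinones by a pair of electrons and is the enzyme most often read as an NRF2 output, lies on chromosome 16 from 69743304 to 69760571 (NCBI Gene ID 1728, minus strand). It had 198.17, 173.06 and 186.45 FPKM at 24 h in the order DMSO, 100 nM and 200 nM, and 133.22, 212.25 and 122.87 at 48 h. The 100 nM 48 h library was the highest and the other 48 h libraries were the lowest. NQO1 differed by -0.19 and -0.09 at 24 h and by 0.67 and -0.12 at 48 h. Its ratio at 100 nM 48 h was 1.59 (counting interval from 1.51 to 1.68), and 29 of 11514 genes had a larger difference there. The DMSO 24 h level, 198.17 FPKM, lay near that of the 100 nM 48 h library. At 200 nM 24 h the difference of NQO1 (-0.09) stood beside 1.35 for SRXN1 and 0.98 for TXNRD1. Against DMSO 48 h these 3 differences were 0.48, 1.31 and 1.11 in that order. Against the mean of the DMSO libraries NQO1 differed by 0.20. At 200 nM 48 h NQO1 differed by -0.69 from DMSO 24 h. Why the 3 genes differed was not tested.

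HMOX1 encodes heme oxygenase-1, which opens heme to biliverdin, iron and carbon monoxide. It lies on chromosome 22 from 35777060 to 35790207 (NCBI Gene ID 3162, plus strand). Heme oxygenase transcripts were at 4.83 FPKM in DMSO, 5.31 at 100 nM and 10.88 at 200 nM at 24 h. At 48 h they were at 10.36, 8.86 and 10.06. The 2 lowest values were DMSO 24 h and 100 nM 24 h, and the other 4 libraries lay between 8.86 and 10.88. HMOX1 was called higher at 200 nM 24 h against DMSO 24 h, at 1.03, with a ratio of 2.25 and a counting interval from 1.86 to 2.73 on about 158 and 345 fragments. It was not called against DMSO 48 h, where the difference was 0.06, nor against the mean of the DMSO libraries, at 0.55. Rescaling by median-of-ratios factors also took it below 2-fold, at 0.97. Between the DMSO libraries, HMOX1 differed by 0.96.

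OSGIN1, an oxidative stress-induced growth inhibitor, lies on chromosome 16 from 83986827 to 83999937 (NCBI Gene ID 29948, plus strand). It had 5.19, 4.22 and 5.89 FPKM at 24 h and 3.87, 4.84 and 4.82 at 48 h. Its differences were -0.25, 0.15, 0.26 and 0.26, and all 4 counting intervals of the ratio included 1. A difference of OSGIN1 from DMSO of the same time was not detectable at this depth. Between the DMSO libraries its ratio was 0.75 at 48 h, with a counting interval from 0.59 to 0.94.

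**Figure D3:**
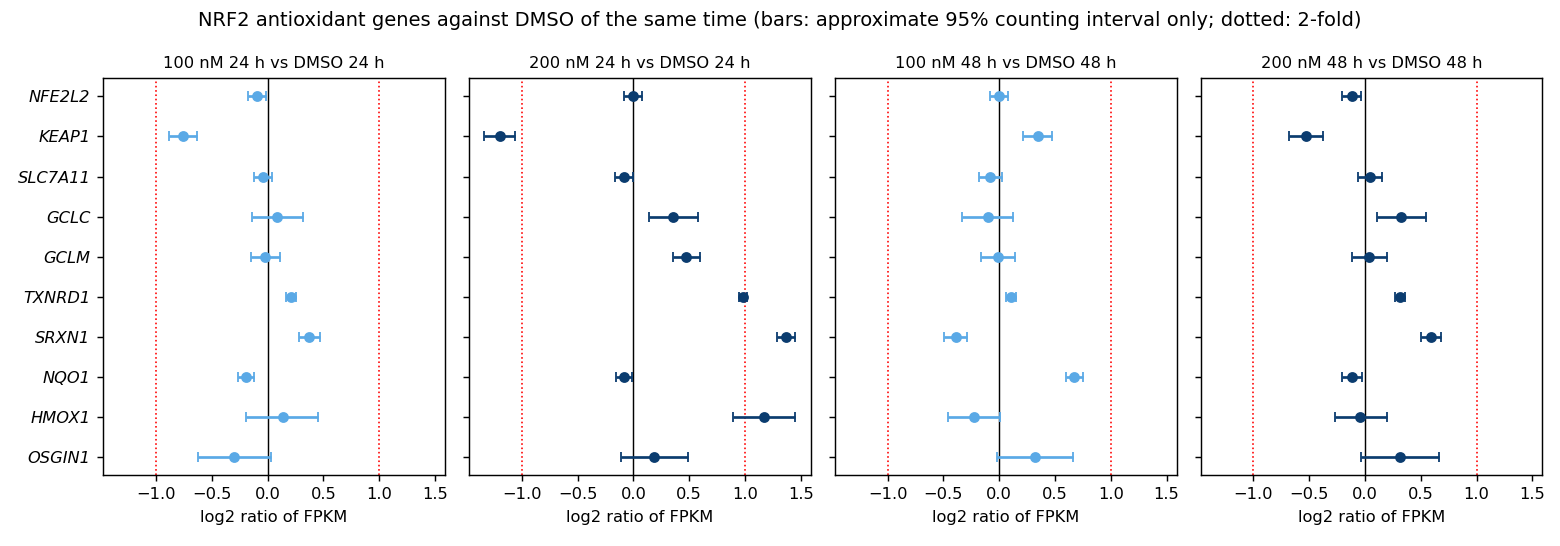
Points give the log2 ratio of FPKM for each of the 10 genes in the 4 comparisons, and bars the approximate 95% counting interval, which holds no variation between cultures; dotted lines mark 2-fold. KEAP1 (ratio 0.44) lay to the left and SRXN1 (2.58), HMOX1 (2.25) and TXNRD1 (1.98) lay to the right at 200 nM 24 h, while NFE2L2 stayed near 0 in all 4 panels.

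Within 24 h, the step from 100 nM to 200 nM was 0.98 for SRXN1, 0.91 for HMOX1, 0.77 for TXNRD1, 0.47 for GCLM and 0.40 for OSGIN1. KEAP1 had a step of -0.41. At 48 h the step was 0.96 for SRXN1 but 0.21 for TXNRD1, 0.17 for HMOX1 and 0.05 for GCLM, and it was -0.78 for NQO1. Between the 200 nM libraries of 24 h and 48 h, TXNRD1 had 431.15 and 247.25 FPKM, SRXN1 91.92 and 54.85, and GCLM 25.10 and 14.01, all lower at the later time. HMOX1 (10.88 and 10.06 FPKM) and KEAP1 (13.20 and 13.11) were at similar levels in these libraries.

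Another 66 genes, a mix of NRF2 targets, regulators and other redox genes listed by role, were all found in the files. At 200 nM 24 h, 6 of the 63 genes tested were called higher and 2 lower, with a median of 0.19 against 0.01 for all genes, of which 4.47% were called higher and 1.48% lower. At 100 nM 24 h, 2 of 63 were called higher and none lower, with a median of 0.02, beside 1.35% and 0.131% of all genes. No gene of the list was called at 100 nM 48 h (62 tested, median 0.04) or 200 nM 48 h (64 tested, median 0.05). Few genes were called there at all, 0.0608% higher and 0.408% lower at 100 nM and 0.206% and 0.06% at 200 nM. The comparisons of each time share a DMSO library, and the called genes depended on it. Against DMSO 48 h, 1 gene of the list was called higher at 200 nM 24 h, SLC3A2, the partner chain of SLC7A11, with 83.88 FPKM beside 36.24. With that reference 3 genes were called lower, CBR3 (4.02 beside 10.45), CHAC1 (1.21 beside 3.76) and ALDH3A1 (3.24 beside 8.53). Of the genes called at 200 nM 24 h against DMSO 24 h, CBR3 alone was thus still called. The calls by role given below are those against DMSO of the same time. The share of all genes called with that reference was not calculated. SLC3A2, CHAC1 and ALDH3A1 lie outside the naming rule and were named after their values were seen.

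Among regulators and partners, 1 of 11 was called higher at 200 nM 24 h, beside 4.47% of all genes. MAFK, a small MAF partner of NRF2, had 5.82, 8.98 and 13.92 FPKM at 24 h in the order DMSO, 100 nM and 200 nM, and 9.56, 9.38 and 11.01 at 48 h. The difference at 200 nM 24 h was 1.13. SQSTM1, the autophagy receptor that can sequester KEAP1, had the highest mean level of this set and differed by 0.13 at 200 nM 24 h. Its levels were higher at 48 h, between 267.26 and 320.04 FPKM, than at 24 h, between 137.71 and 190.53.

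Glutathione genes were called in both directions. GSTM3, a glutathione transferase, was called higher at 200 nM 24 h, with 2.03, 3.96 and 5.95 FPKM at 24 h and 3.99, 2.58 and 6.13 at 48 h. Reads can be shared between similar genes of the GSTM family, which may make the level of GSTM3 uncertain, and this was not tested. MGST1, the microsomal transferase, was called lower, with 126.75, 88.80 and 57.44 FPKM at 24 h and 101.68, 113.28 and 94.69 at 48 h. The differences at 200 nM 24 h were 1.20 for GSTM3 and -1.13 for MGST1. GPX4, the lipid peroxide reductase, had the highest mean level and differed by 0.44. Of the 12 glutathione genes tested there, 6 lay above and 6 below DMSO, beside 51.2% and 48.6% of all genes. Calls numbered 1 higher and 1 lower, beside 4.47% and 1.48%.

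None of the 9 thioredoxin and peroxiredoxin genes was called in any of the 4 comparisons. Of all genes, 4.47% were called higher and 1.48% lower at 200 nM 24 h, with smaller shares in the other comparisons. TXN, the substrate of TXNRD1, had 368.67, 326.79 and 293.40 FPKM at 24 h and 279.03, 283.61 and 267.20 at 48 h. TXN was thus highest in DMSO 24 h, and its difference at 200 nM 24 h was -0.33, beside 0.98 for TXNRD1. PRDX3, the mitochondrial peroxiredoxin, had the widest difference of this set at 200 nM 24 h, at -0.48.

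Of the genes for NADPH supply, TKT, transketolase, had the highest mean level, with 184.35, 164.85 and 194.64 FPKM at 24 h and 194.20, 254.43 and 205.98 at 48 h. TKT was highest in the 100 nM 48 h library, and its difference at 200 nM 24 h was 0.08.

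Of the 14 detoxification genes tested at 200 nM 24 h, 2 were called higher and 1 lower, beside 4.47% and 1.48% of all genes. AKR1C3, an aldo-keto reductase, was called higher at both doses at 24 h (1.51 and 1.84), with 4.08, 13.47 and 17.17 FPKM. At 48 h AKR1C3 had 13.94, 11.33 and 22.02 FPKM, so that DMSO 24 h alone was low. AKR1C1, AKR1C2 and AKR1C3 are related in sequence, and how reads were split between them is uncertain. AKR1C1 lay between 0.05 and 1.18 FPKM, and AKR1C2 did not exceed 0.30. NQO2, the relative of NQO1 that uses dihydronicotinamide riboside, was called higher at 1.17, with 41.59, 56.67 and 94.88 FPKM at 24 h and 47.86, 53.31 and 53.44 at 48 h. CBR3, a carbonyl reductase, was called lower at -1.66, with 14.84, 9.12 and 4.02 FPKM at 24 h and 10.45, 11.45 and 6.72 at 48 h. AKR1B1, aldose reductase, had the highest mean level and differed by 0.97.

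No heme and iron gene was called on the log2(FPKM + 1) scale, with 7 tested in each comparison. The largest shares of all genes called were 4.47% higher and 1.48% lower, at 200 nM 24 h. BLVRA, the biliverdin reductase that acts after heme oxygenase, had 16.11, 25.19 and 32.79 FPKM at 24 h and 31.55, 25.11 and 33.03 at 48 h. As with HMOX1, DMSO 24 h was the lowest library, and the difference at 200 nM 24 h was 0.98, just under the threshold. FTL, the ferritin light chain, was the highest of the list, between 4369.09 and 6088.42 FPKM, and differed by 0.34 at 200 nM 24 h and 0.44 at 100 nM 48 h. Ferritin has many processed copies in the genome, which makes its level uncertain. SOD3, the extracellular superoxide dismutase, was called higher at both doses at 24 h (1.25 and 1.14), with 0.57, 2.74 and 2.46 FPKM, and had 2.81, 1.22 and 3.66 at 48 h. It passed the filter at 24 h only through the treated libraries, and it was not tested when 1 FPKM was required in the DMSO library too. SOD1 had the highest mean level of its set and differed by -0.35 at 200 nM 24 h.

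**Figure D4:**
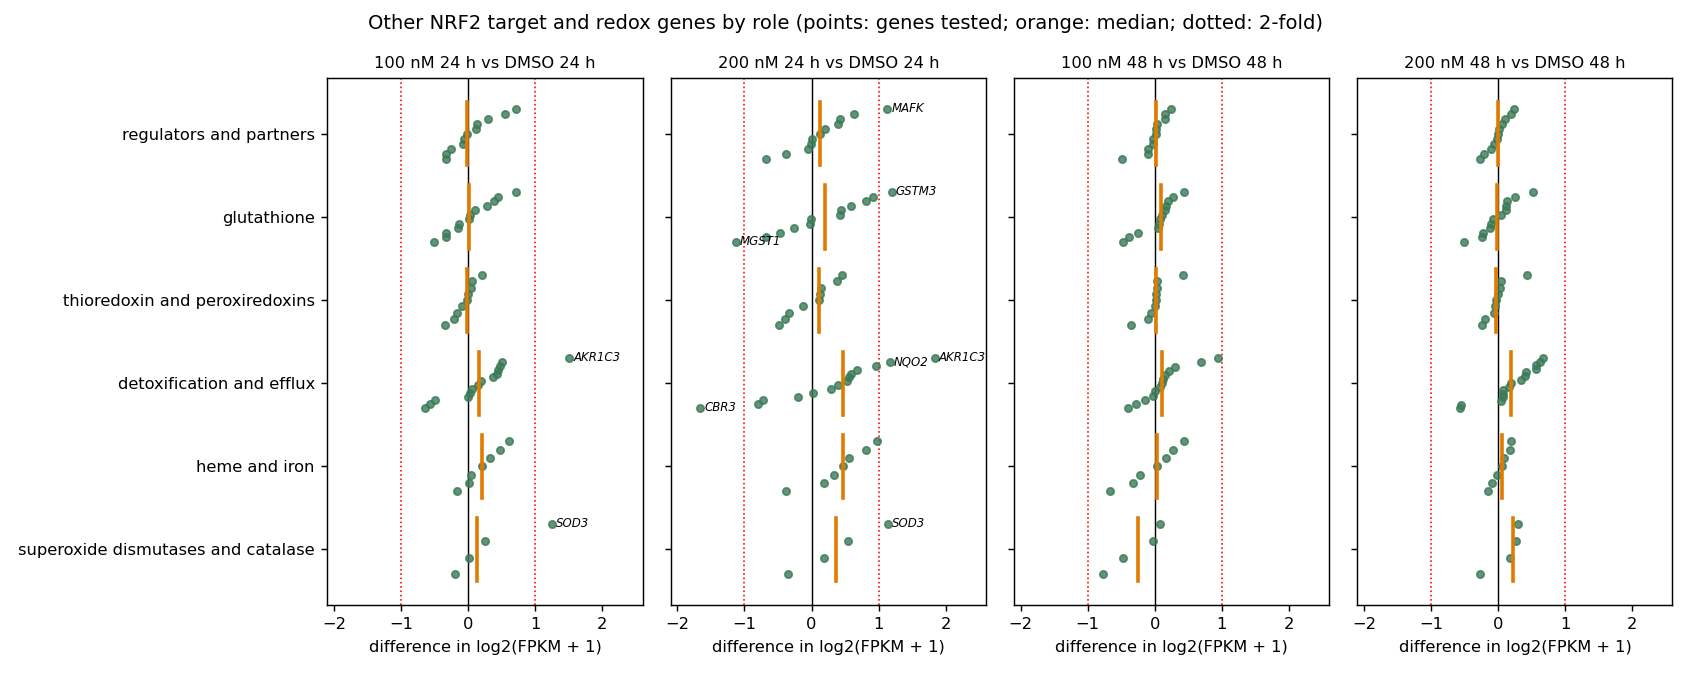
Each point is a tested gene of 6 role sets of the 66-gene list, placed by role and by its difference in log2(FPKM + 1) from DMSO of the same time; orange lines are medians and dotted lines mark 2-fold. At 200 nM 24 h MAFK, GSTM3, NQO2, AKR1C3 and SOD3 lay past 2-fold on the right and MGST1 and CBR3 on the left, and no point was past 2-fold at 48 h.

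The widest ranges over the 6 libraries among the 10 genes were those of SRXN1, KEAP1 and TXNRD1. For each, the genes of most similar profile were sought among 10726 genes that reached 1 FPKM in every library, by the root mean square difference of log2(FPKM + 1) after centring each gene on its own mean. Closest to SRXN1 were LINC02901 (0.08), MICA (0.13) and IFI30 (0.13). MICA, a stress-induced ligand of the receptor NKG2D, had 21.55, 29.16 and 59.18 FPKM at 24 h and 25.57, 21.46 and 33.00 at 48 h. KEAP1 was closest to ADI1 (0.09), BTBD6 (0.10) and JADE2 (0.10), and TXNRD1 to ANKRD33B (0.07), PCID2 (0.08) and PRADC1 (0.09). These are likenesses over 6 libraries that differ in dose and time.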

How the data were processed

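RNA-seq was done on MDA-MB-231 cells in 6 conditions with 1 library each. The authors deposited FPKM values per gene, rounded to 2 decimals, with hg19 coordinates and RefSeq transcripts. The submitters' processing notes name Bowtie2 and RSEM without versions; filters and strand setting are not given in the sources used here. NCBI Gene IDs were matched to symbols in the RefSeq table of GRCh38.p14 (16585 matched, 38 not). Differences were calculated in log2(FPKM + 1), and calls needed 2-fold and a value of 1 FPKM or more in the treated or the DMSO library. No count test was run and no p-value calculated. The calling rule was also run on simulated data with counting error only. That run held no variation between cultures, so it cannot show how reliable the calls made here are.

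Depth was estimated from the spacing of low values, using single-transcript genes whose length was 500 to 1500 bases in GENCODE release 29. Counting intervals are exact (Clopper-Pearson) on the inferred fragments, at 95%. The 10 genes, the 66-gene list and all thresholds were chosen with earlier results of these data known. All 10 genes are named. From each role set of the list, the text names the genes called in any comparison, the gene with the highest mean FPKM and the gene with the largest difference at 200 nM 24 h, and, for the 3 of the 10 with the widest range, the 3 genes of closest profile. A called gene of the list is counted but not reported here by name. Alternatives were pseudocounts of 0.1 and 0.01, filters on both libraries or none, TPM, median-of-ratios factors, a 1.5-fold threshold and other DMSO references. Python 3.11.15, numpy 2.4.6, pandas 2.3.3, scipy 1.17.1 and matplotlib 3.10.9 were used.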

Additional observations from a re-analysis of the deposited data

Results flagged for a closer look

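For 3 genes the difference between the 100 nM library and DMSO of the same time had opposite signs at 24 h and 48 h. The counting intervals excluded no change at each time, but they cover counting error only. KEAP1 differed from DMSO of the same time by -0.72 at 24 h and by 0.33 at 48 h. SRXN1 differed by 0.37 at 24 h and -0.38 at 48 h. NQO1 differed by -0.19 at 24 h and 0.67 at 48 h. For HMOX1, both doses lay above DMSO at 24 h (0.11 and 1.03) and both lay below it at 48 h (-0.20 and -0.039). Only at 200 nM 24 h did its counting interval exclude a ratio of 1. The intervals ran from 0.88 to 1.37 at 100 nM 24 h, 0.73 to 1.01 at 100 nM 48 h and 0.83 to 1.14 at 200 nM 48 h. A change of direction of HMOX1 is thus not shown. Against the DMSO library of the other time, KEAP1 at 100 nM differed by -0.077 at 24 h and -0.32 at 48 h and NQO1 by 0.38 and 0.098, with the same sign at both times, while SRXN1 differed by 0.33 and -0.35. HMOX1 then differed by -0.85 and 0.065 at 24 h and by 0.76 and 0.92 at 48 h. An exchange of the labels of DMSO 48 h and 100 nM 48 h would turn the sign of each 100 nM 48 h value above that is set against DMSO of the same time. It would also change the 24 h values set against DMSO 48 h and the 100 nM 48 h values set against DMSO 24 h. None of these differences between the times was tested, since there was 1 library per condition, and each rests on the DMSO library of its own time.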

How the results depend on the processing

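No paired analysis was possible because every group holds a single library. Pseudocount and filter left every call of the 10 genes as it was. Rescaling by median-of-ratios factors left 1 of the 10 genes called higher at 200 nM 24 h, with HMOX1 at 0.97. The median over all genes moved by less than 0.1 under each scaling. The reference mattered most. With the DMSO library of the other time, none of the 10 genes (0) was called lower at 200 nM 24 h, with KEAP1 at -0.49, and 1 was called lower at 200 nM 48 h, KEAP1 at -1.15. TXNRD1 became called higher at 200 nM 24 h at 1.11, and HMOX1 was no longer called. With the mean of the DMSO libraries, KEAP1 was at -0.81 at 200 nM 24 h (0 called lower) and TXNRD1 at 1.05. The share of all genes called was not calculated for these references or for the rescaled values. With a 1.5-fold threshold, 1 of the 10 was called lower at 100 nM 24 h, beside 1.25% of all genes. At 100 nM 48 h, 1 was called higher, beside 0.504%.

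For the list of 66 genes, the other DMSO gave 0 higher and 1 lower (ALDH3A1) at 100 nM 24 h, 1 higher (SLC3A2) and 3 lower at 200 nM 24 h (median 0.038), 4 higher at 100 nM 48 h (median 0.20), and 7 higher and 1 lower at 200 nM 48 h (median 0.22). The mean of the DMSO libraries gave 0 higher at 100 nM 24 h, 3 higher and 1 lower at 200 nM 24 h, 1 higher at 100 nM 48 h and 1 higher at 200 nM 48 h (median 0.16). The 1.5-fold threshold gave 6 higher and 1 lower of 63 at 100 nM 24 h, beside 5.54% and 1.25% of all genes. At 200 nM 24 h it gave 14 higher and 6 lower of 63, beside 12.5% and 7.58%. At 100 nM 48 h it gave 2 higher and 2 lower of 62, beside 0.504% and 1.75%. At 200 nM 48 h it gave 2 higher and 0 lower of 64, beside 1.53% and 0.463%. Pseudocounts of 0.1 and 0.01 each gave 1 higher and 1 lower at 100 nM 48 h and 1 higher at 200 nM 48 h. At 200 nM 24 h each gave 8 higher in place of 6, and 0.01 gave 3 higher at 100 nM 24 h. TPM gave 7 higher at 200 nM 24 h and 1 lower at 100 nM 48 h. Requiring 1 FPKM in the treated and the DMSO library gave 1 higher at 100 nM 24 h and 5 higher at 200 nM 24 h, without SOD3. Except for the 1.5-fold threshold, the share of all genes called was not calculated under these alternatives. Their counts therefore have no background and are not results about the list. Between DMSO 48 h and DMSO 24 h, 2.49% of all genes were called higher and 0.131% lower. The cause of these shifts was not tested.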
